A study of Mus musculus with 12 samples.

Results

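The Hox genes of mouse adult fibroblasts (MAFs) were examined across radiation-induced senescence and loss of the circadian clock gene Bmal1. The members were all rows whose gene symbol is Hoxa, Hoxb, Hoxc or Hoxd followed only by a number, which gave 39 genes among the 49315 rows of the count tables. RNA sequencing had been done on 12 libraries in 4 groups of 3, control and senescent cells of the WT and the KO genotype. WT cells came from the ears of adult C57BL/6 mice, and KO cells came from the ears of Bmal1-/- mice, which lack Bmal1 in every tissue and whose strain background is not given in the sources used here. Ages in weeks or months are not given either. Control cells were sham irradiated. Senescent cells received 20 Gy of X-rays and were kept in culture for weeks before collection, and the sources used here do not state how long the control cells were kept, so irradiation and time in culture cannot be told apart. All 4 groups, controls included, were grown as primary cultures in 10% serum at 3% oxygen, were given 100 nM dexamethasone for 2 h to set their clocks, and were collected 12 h later. Nothing states that replicates were separate animals or cultures, so the p-values measure only the spread between these libraries, which may be technical.

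Hox genes encode homeodomain transcription factors that lie in 4 clusters, HoxA to HoxD, and are numbered by paralogue group from the 3′ end of each cluster to the 5′ end. In the embryo the 3′ genes are switched on first and reach furthest towards the head, while the 5′ genes mark the posterior trunk and the ends of the limbs. Adult fibroblasts keep part of this code, so that their Hox profile records the body site they came from. The external ear grows largely from the second pharyngeal arch, whose identity is set by HOXA2. Polycomb complexes keep unused Hox genes silent through methylation of histone H3, and PBX and MEIS proteins bind DNA together with HOX proteins.

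Libraries held 23923030 to 31736083 counts, at which 3 counts correspond to 0.101 to 0.135 CPM, the count scaled to the library total. Between 22481 and 23531 genes had a count in each control library, and between 25132 and 26043 in each senescent library. The 10 fibroblast markers (Col1a1, Dcn and others) summed to 60300 CPM in WT control and 46900 in WT senescent cells, and to 66720 in KO control and 43730 in KO senescent cells. Fn1 made up most of each sum, at 39900, 36830, 41140 and 31760 CPM in the same order. By the test given below, 5 of the 10 rose and 4 fell in WT senescent cells (29.2% and 27% of all genes). In KO senescent cells 3 rose and 6 fell (28.5% and 28.6%). The 9 chondrocyte markers (Col2a1, Acan and others) summed to 7449 to 9297 CPM in WT control, 1981 to 2283 in WT senescent, 4835 to 6720 in KO control and 620.8 to 719.2 in KO senescent libraries, so the ear cultures carried cartilage transcripts next to fibroblast ones. None of the markers on either list was at 0. Bmal1 itself, listed as Arntl, was at 29.8 to 33.2 CPM in WT control, 35.2 to 37.3 in WT senescent, 11.8 to 15.2 in KO control and 25.3 to 27.4 in KO senescent libraries, so KO libraries kept reads over the gene, and the tables do not show which exons they came from. In bulk RNA, fewer cells of a type and less RNA per cell cannot be told apart.

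Promoters of 4 of the members that changed are shown first, because Hoxa2 fell in senescent KO cells while Hoxd8, Hoxd11 and Hoxd13 rose from at most 0.515 CPM in any control library. Each is the 250 bases before a transcription start, 5′ to 3′ on the gene's strand, from RefSeq (GRCm38.p6), and none of these bases lies in an annotated exon. The windows are chr6:52164832-52165081 on the minus strand for Hoxa2, chr2:74704365-74704614 for Hoxd8, chr2:74682073-74682322 for the second listed start of Hoxd11 and chr2:74667975-74668224 for Hoxd13, the last 3 on the plus strand. Capitals mark matches on either strand to CACGTG, the E-box that BMAL1 and CLOCK bind, or to TGATTNAT, the letters that HOX and PBX proteins bind as a pair.
Hoxa2: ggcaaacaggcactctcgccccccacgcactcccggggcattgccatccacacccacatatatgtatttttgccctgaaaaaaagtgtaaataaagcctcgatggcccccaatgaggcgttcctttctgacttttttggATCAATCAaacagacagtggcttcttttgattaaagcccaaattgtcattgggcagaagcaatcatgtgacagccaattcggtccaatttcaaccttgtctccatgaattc
Hoxd8: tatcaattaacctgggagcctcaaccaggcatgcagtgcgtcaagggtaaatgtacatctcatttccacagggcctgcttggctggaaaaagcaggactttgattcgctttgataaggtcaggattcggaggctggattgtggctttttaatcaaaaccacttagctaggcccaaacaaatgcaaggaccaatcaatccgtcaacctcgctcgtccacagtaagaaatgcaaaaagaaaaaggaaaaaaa
Hoxd11: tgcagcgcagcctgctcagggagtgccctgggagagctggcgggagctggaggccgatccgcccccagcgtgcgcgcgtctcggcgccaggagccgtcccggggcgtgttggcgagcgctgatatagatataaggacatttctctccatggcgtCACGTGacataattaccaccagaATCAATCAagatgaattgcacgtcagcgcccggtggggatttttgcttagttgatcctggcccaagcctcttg
Hoxd13: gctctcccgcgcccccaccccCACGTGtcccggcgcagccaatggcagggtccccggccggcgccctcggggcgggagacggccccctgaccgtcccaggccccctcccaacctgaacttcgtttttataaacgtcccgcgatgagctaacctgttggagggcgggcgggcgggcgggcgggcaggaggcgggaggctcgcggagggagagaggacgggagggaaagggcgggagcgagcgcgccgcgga
The Hoxa2 window held 1 HOX-PBX match, starting 111 bases before the start, and no E-box. The Hoxd11 window held an E-box 96 bases and a HOX-PBX match 73 bases before the start, without overlap between them, and the Hoxd13 window held an E-box 229 bases before the start. The Hoxd8 window held none of the motifs searched, and neither did the windows of Hoxa10, another member that rose. Hoxc13, Hoxb9 and Hoxc6, which also rose, had no window in the promoter set used here. CACGTG was present in 6.02% of all 32851 promoter windows of this length, TGATTNAT in 2.82% and the AP-1 letters TGACTCA in 4.46%. Among 24 windows of 22 Hox genes, 4 had the E-box (Hoxd1, Hoxd10, Hoxd11 and Hoxd13), 2 had the HOX-PBX letters (Hoxa2 and Hoxd11) and 1 had the AP-1 letters (the first listed start of Hoxd11, 20 bases before it). These matches describe the sequence and not binding.

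The Hox profile of the ear cells was led by the 3′ end of HoxA in all 4 groups. Per kilobase of exon, Hoxa2, the selector of the second arch, stood at 7.29 ± 0.481 (SD, n = 3) CPM per kb (RPKM) in WT control, 8.37 ± 0.474 in WT senescent, 8.97 ± 0.273 in KO control and 4.66 ± 0.947 in KO senescent cells. In every group the 3 Hoxa2 libraries lay above those of all other members. Hoxa5, a gene of cervical and lung development, was in WT control cells at 0.870 ± 0.278 RPKM, and Hoxa3, a gene of thymus and parathyroid development, stood at 0.325 ± 0.0696, without overlap between them. Part of the Hoxa3 exon length (27.1%) is shared with other genes, so its level per length is uncertain. Below these, Hoxc13, Hoxa7, Hoxb2 and Hoxa4 followed in that order in WT control cells, and each overlapped its neighbour. In KO control cells Hoxc13, Hoxa3 and Hoxa5 stood at 0.592, 0.454 and 0.416 RPKM, and neighbours in that run overlapped.

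**Figure D1:**
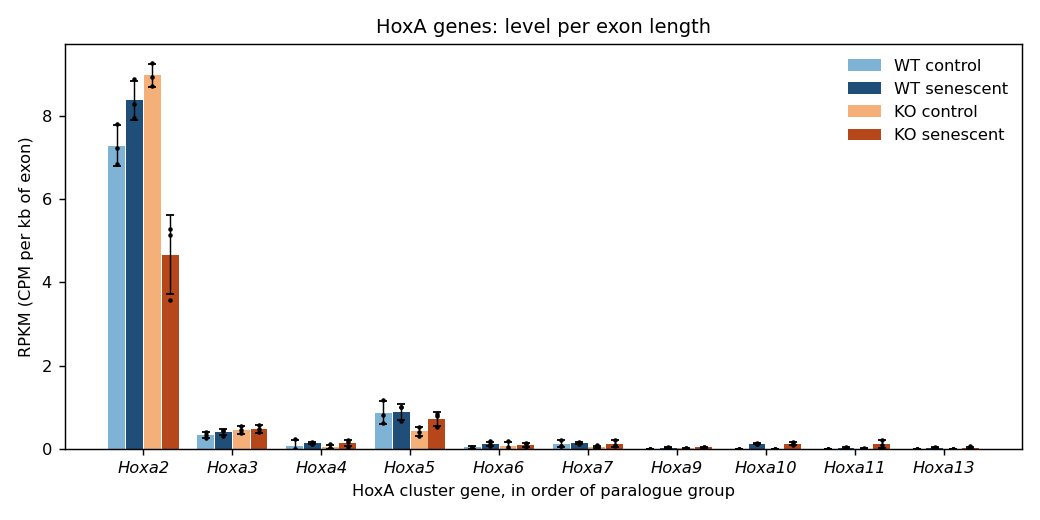
Level per exon length (RPKM, y axis) of 10 HoxA genes in order of paralogue group (x axis). Bars are means, error bars SD and dots the 3 libraries of each group. Hoxa2 stands above the other genes drawn, and the KO senescent Hoxa2 bar, at 4.66 RPKM, is the lowest of its 4 bars.

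By position along the clusters, the summed level of the 8 genes of paralogue groups 1 to 3 was 22.5 ± 0.946, 24.5 ± 1.86, 25.8 ± 0.983 and 17.9 ± 1.5 CPM, giving the WT groups first and control before senescent cells. The 15 genes of groups 4 to 8 summed to 2.36 ± 0.816, 4.77 ± 0.332, 1.85 ± 0.491 and 6.28 ± 0.718 CPM. The 16 genes of groups 9 to 13 summed to 0.482 ± 0.164, 6.78 ± 0.335, 1.55 ± 0.405 and 10.5 ± 2.29 CPM. Control cells thus held nearly all their Hox counts in the 3′ genes, and the 5′ sum of every senescent library lay above that of every control library of its genotype. Hoxc13, a gene of hair and nail, made up most of the 5′ sum in control cells, since without it the sum was 0.042 CPM in WT control and 0.0951 in KO control cells against 3.22 in WT senescent and 5.92 in KO senescent cells.

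Low counts of central and posterior genes of all 4 clusters appeared in senescent cells. At least 3 counts were found for 8 to 10 of the 39 genes in WT control libraries and 24 to 26 in WT senescent libraries. In KO cells the numbers were 10 to 12 in control and 26 to 32 in senescent libraries. Senescent libraries detected more genes of any kind, as given above, and the part of that in the Hox counts was not tested. Of the 39 members, 15 had no count in any of the 6 control libraries (Hoxa10, Hoxa13, Hoxb1, Hoxb7, Hoxb13, Hoxc9, Hoxc10, Hoxc11, Hoxc12, Hoxd1, Hoxd3, Hoxd4, Hoxd10, Hoxd11 and Hoxd12), and 14 of these had counts in senescent libraries. Hoxb1, a hindbrain gene, had no count in any library.

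**Figure D2:**
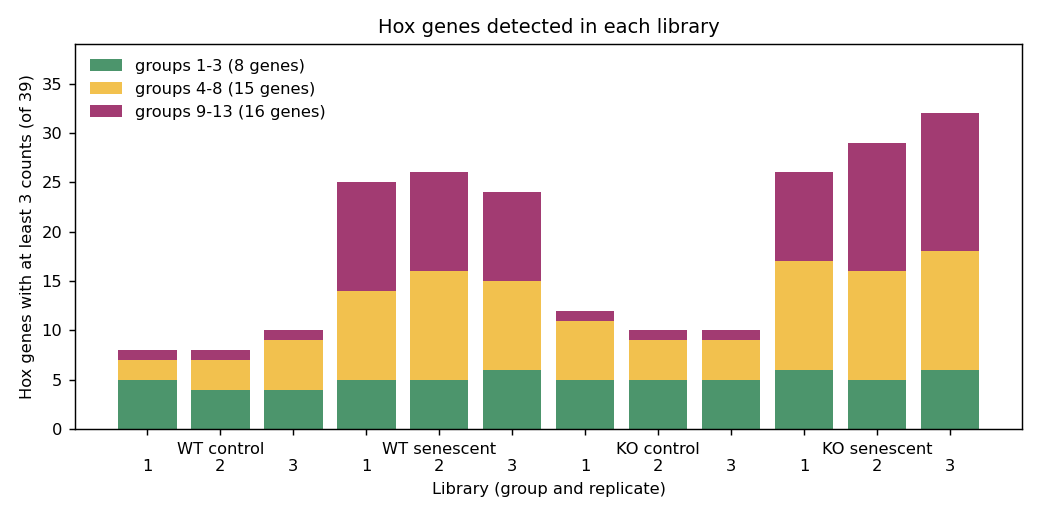
Number of the 39 Hox genes with at least 3 counts (y axis) in each of the 12 libraries (x axis), stacked by paralogue group. Control libraries reach 8 to 12 genes and senescent libraries 24 to 32, most of the difference being in groups 4 to 8 and 9 to 13.

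The appearance of counts was set beside that of all protein-coding genes. In WT cells, 22 Hox genes had no count in the 3 control libraries, and 10 of them (45.5%) had a count in all 3 senescent libraries, against 300 of 4743 protein-coding genes (6.33%). In KO cells it was 13 of 19 Hox genes (68.4%) against 347 of 4909 protein-coding genes (7.07%). Every senescent library lay above every control library for 18 of the 39 members in WT cells, where 26.3% of protein-coding genes did so, and for 20 of 39 in KO cells, where 25.4% did. The members counted just above, with counts in senescent libraries alone, are among these by construction. Some rest on very few counts, such as Hoxa13 in WT (3, 1 and 1) and Hoxb13 in KO (1, 2 and 3) senescent libraries, with no control count. Every senescent library lay below every control library for 0 members in WT cells, beside 22% of protein-coding genes, and for 1, Hoxa2, in KO cells, beside 22.4%. Genes chosen for having no control count could only stay at 0 or rise, so their shares are no evidence about Hox genes as a family. The protein-coding set also held many genes silent in senescent cells. Of all protein-coding genes, 3419 had no count in the WT senescent libraries and 3602 had none in the KO senescent libraries. These shares are descriptions, and genes of a cluster are neighbours on the chromosome and not independent.

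**Figure D3:**
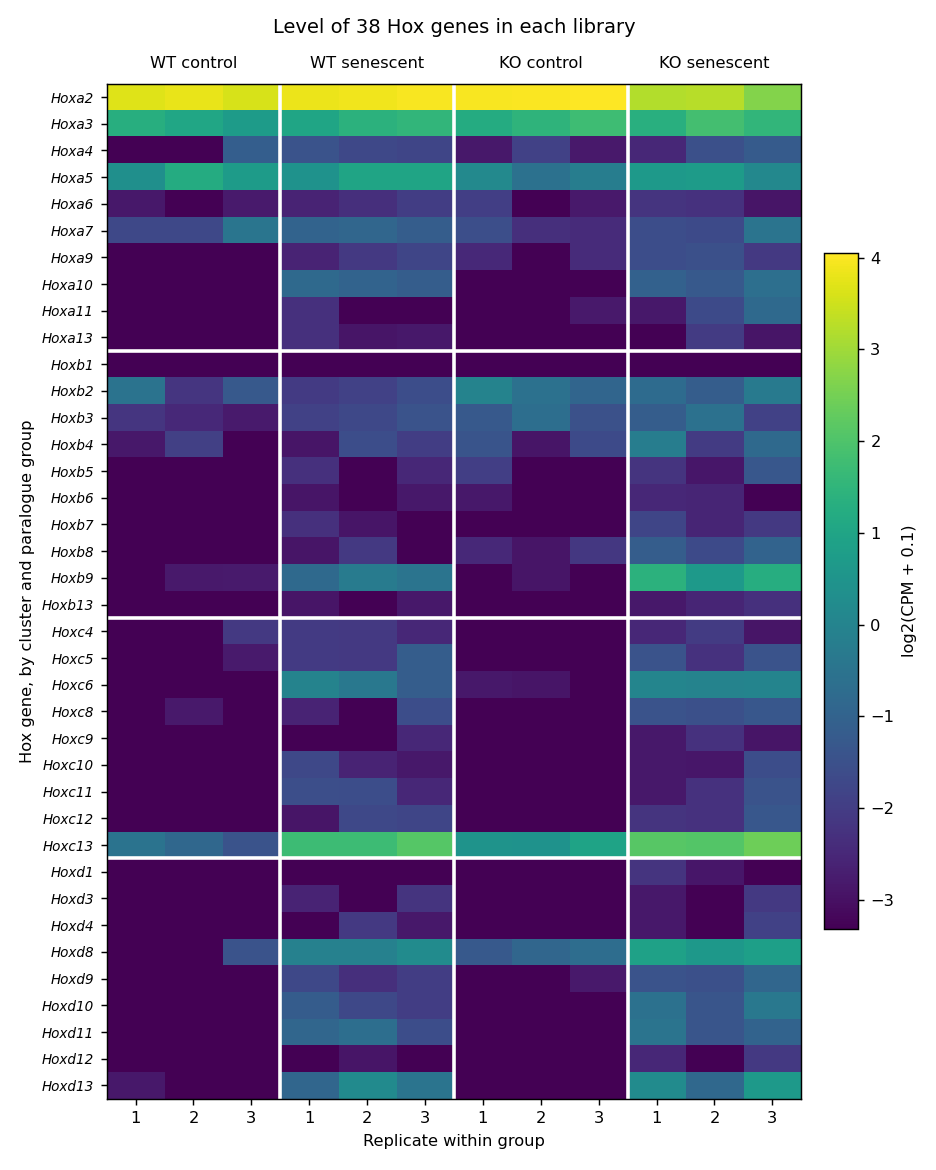
Log2(CPM + 0.1) of 38 Hox genes (rows, by cluster and paralogue group) in the 12 libraries (columns, by group and replicate). Hoxa2 is bright in every column, and faint signal over the HoxB, HoxC and HoxD rows is mostly in the senescent columns.

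Of the 39 members, 13 had enough counts for the test across genes (edgeR quasi-likelihood test, Benjamini-Hochberg over 17416 genes), and 26 did not. A member that entered only through its senescent counts had to differ, so the number that passed is no evidence about Hox genes as a family. In WT cells 7 of the 13 rose with senescence (Hoxa10, Hoxb9, Hoxc6, Hoxc13, Hoxd8, Hoxd11 and Hoxd13), where 29.2% of all genes tested rose, and none fell, where 27% did. In KO cells the 7 that rose had the same names, beside 28.5% of all genes, and 1, Hoxa2, fell, beside 28.6%. All 7 changed by more than the 2-fold threshold of the study in both genotypes.

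**Figure D4:**
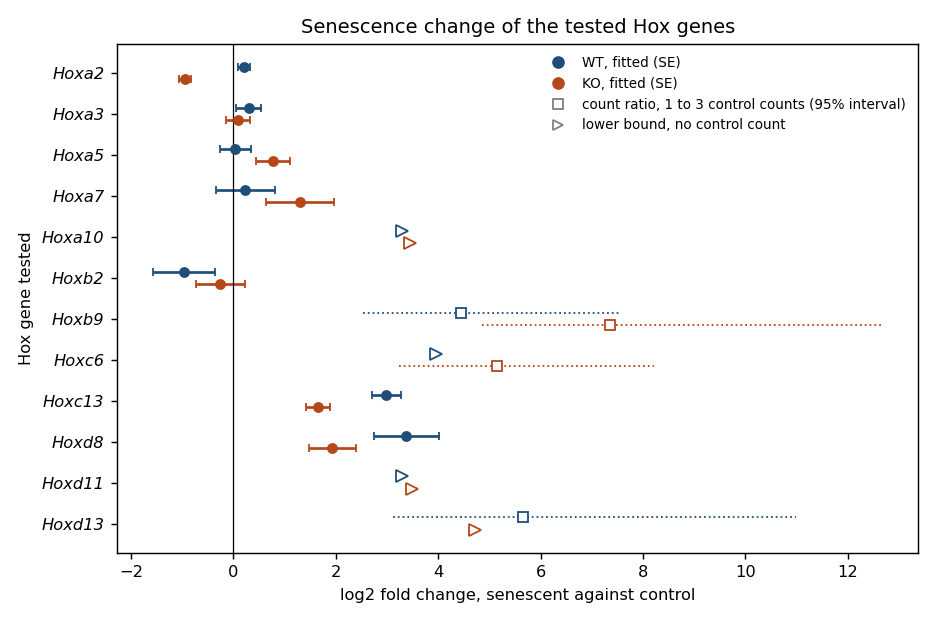
Log2 fold change of senescent against control cells (x axis) for 12 of the 13 tested Hox genes (y axis) in WT (blue) and KO (orange) cells. Filled circles are fitted values with SE, open squares are ratios of pooled counts with an exact 95% interval where controls held 1 to 3 counts, and triangles are lower bounds where controls held none. Hoxa2 lies at -0.95 in KO and 0.20 in WT cells.

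Hoxa2, on chromosome 6 (52162417 to 52164831, minus strand), was the most highly expressed member and the one that fell. In WT cells the level was 12.8, 13.8 and 12.1 CPM in control libraries and 14.1, 14.7 and 15.8 CPM in senescent libraries. In KO cells it was at 15.5, 15.9 and 16.4 CPM in control and 9.10, 9.39 and 6.34 CPM in senescent libraries. The KO senescent libraries were the lowest 3 of the 12, and the KO senescent library 3 was the lowest of all. The change was 0.20 on the log2 scale (SE 0.12, adjusted p = 0.153) in WT cells and -0.95 (SE 0.12, adjusted p = 7.3e-07) in KO cells. The difference between the genotypes in this change was -1.14 on the log2 scale (SE 0.17, adjusted p = 8.4e-05). Without KO senescent library 3 it was -0.98. Among senescent cells alone, KO was below WT by a log2 difference of -0.85 (SE 0.12, adjusted p = 2.27e-05). Of the Hoxa2 exon length, 15% is shared with the annotated transcript unit Gm28308 on the same strand, and reads there could not be assigned.

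Hoxa3, next to Hoxa2 in the cluster, showed no change past the threshold in either genotype. Of the Hoxa3 exon length, 27.1% is shared with 5 other annotated genes, Hoxaas2 among them, so its counts are uncertain. Hoxa3 ranged from 1.53 to 2.37 CPM in WT control, 1.90 to 2.78 in WT senescent, 2.24 to 3.30 in KO control and 2.39 to 3.47 in KO senescent libraries, and senescent libraries overlapped control libraries. The fitted log2 changes of Hoxa3 were 0.30 (95% interval -0.18 to 0.77) in WT and 0.08 (-0.37 to 0.53) in KO cells, and their difference was -0.21 (-0.87 to 0.44).

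The chondrocyte markers fell with senescence in both genotypes, whereas Hoxa2 fell in KO cells and not in WT cells. Of these 9 markers, 8 fell and 1, Comp, rose in WT senescent cells, beside 27% and 29.2% of all genes tested, and the 8 other than Comp fell in KO senescent cells, beside 28.6%. The fall was larger in KO than WT cells by the interaction test for these 8 with the exception of Col9a2 (adjusted p = 0.137). The interaction passed below 0 for 11.7% of all genes tested. All 9 were lower in KO than WT senescent cells, beside 11.8% of all genes. All 12 cell cycle genes fell in both genotypes, beside 27% of all genes in WT and 28.6% in KO cells. Their sum was 2445 CPM in WT control, 336.8 in WT senescent, 2377 in KO control and 260.1 in KO senescent cells. The part of either in the Hoxa2 values was not tested.

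A pair of noncoding RNAs of the same end of HoxA could also be tested. Hoxaas2, an antisense transcript next to Hoxa3, stood at 7.60, 7.04 and 6.05 CPM in WT control, 11.5, 11.1 and 12.2 in WT senescent, 7.56, 11.4 and 11.2 in KO control and 5.47, 5.49 and 4.93 in KO senescent libraries. It rose by 0.75 on the log2 scale in WT cells (adjusted p = 1.3e-04) and changed by -0.93 in KO cells (adjusted p = 1.4e-05), a difference of -1.68 (adjusted p = 1.7e-05). WT and KO senescent libraries lay on opposite sides of their controls. Hotairm1, a noncoding RNA of myeloid cells, was at 5.94 to 6.91 CPM in WT control, 7.95 to 9.64 in WT senescent, 6.78 to 7.47 in KO control and 5.77 to 7.33 in KO senescent libraries. It rose by 0.44 in WT cells (adjusted p = 0.00654), and its change in KO cells, -0.13 (adjusted p = 0.429), differed from that by -0.57 (adjusted p = 0.0332). Of their exon length, 15% of Hoxaas2 and 43.1% of Hotairm1 is shared with other genes, and counting by strand is not stated in the sources used here, so reads in those stretches cannot be told apart by strand. Of the 18 noncoding genes of the Hox loci listed, 16 had a row and the other 14 with a row were too low to test. Hotair, the RNA of the HoxC cluster, had no count in control cells and means of 0.0593 CPM in WT and 0.0353 CPM in KO senescent cells.

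Hoxc13, on chromosome 15 (102921103 to 102928814), had the highest level of the posterior genes. It stood at 0.603, 0.448 and 0.271 CPM in WT control, 3.23, 3.23 and 4.2 in WT senescent, 1.28, 1.25 and 1.85 in KO control and 4.32, 4.15 and 5.23 in KO senescent libraries. No library of 1 condition overlapped the other condition within a genotype, and the KO control libraries all lay above the WT control libraries. The WT rise was 2.98 on the log2 scale (SE 0.28, adjusted p = 1.2e-08), and the KO rise was 1.66 (SE 0.23, adjusted p = 3.48e-06). The KO change was smaller by the interaction test (-1.33, SE 0.38, adjusted p = 0.0158), which missed the threshold without WT control library 3 (adjusted p = 0.0505) or without KO control library 3 (adjusted p = 0.0554). In control cells KO was above WT by 1.69 (SE 0.31, adjusted p = 6.81e-04), and in senescent cells the difference was 0.36 (adjusted p = 0.239). The 7 keratinocyte markers summed to 10.2 to 14.5 CPM in WT control, 18.7 to 19.6 in WT senescent, 11.5 to 12.4 in KO control and 12.5 to 13.2 in KO senescent libraries, with 3 of the 4 tested higher in WT senescent cells (29.2% of all genes), and 3 higher and 1 lower in KO senescent cells (28.5% and 28.6%). Trp63 made up most of the sum in control cells, at 8.15 CPM in WT and 8.39 in KO, and stood at 10.0 in WT and 3.36 in KO senescent cells. Krt5 was at 1.37 in WT control, 5.14 in WT senescent, 0.941 in KO control and 5.56 in KO senescent cells. Krt1 and Dsg3 had group means of at most 0.0585 CPM. None of the 7 was at 0 in every library, and their part in the Hoxc13 values was not tested.

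**Figure D5:**
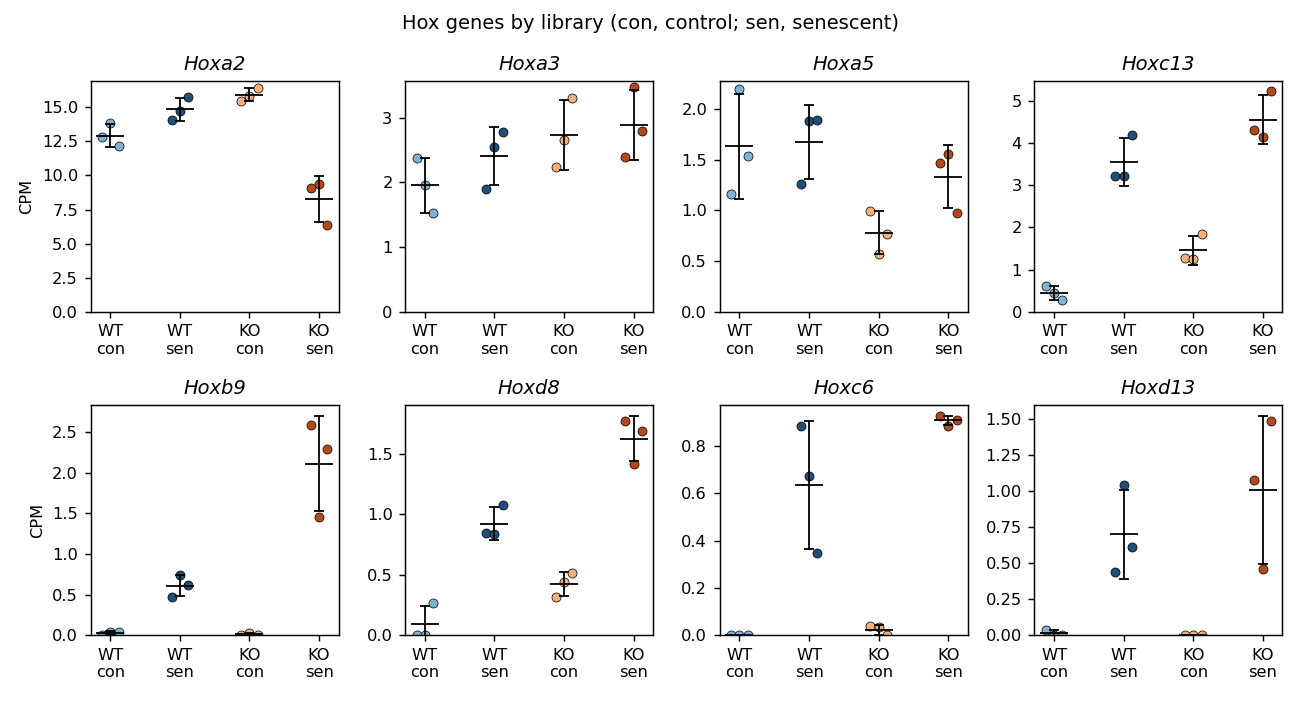
CPM (y axis, each panel from 0) of 8 Hox genes in the 4 groups (x axis; con, control; sen, senescent). Dots are libraries and bars the mean and SD of 3. Hoxa2 falls in KO senescent cells, and Hoxc13, Hoxb9, Hoxd8, Hoxc6 and Hoxd13 are higher in senescent than control cells of both genotypes.

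Hoxb9, a gene of thoracic identity on chromosome 11 (96271457 to 96276595), rose from nearly no counts. It had 0, 0.0407 and 0.0451 CPM in WT control and 0.476, 0.740 and 0.617 CPM in WT senescent libraries. In KO cells it had 0, 0.0337 and 0 CPM in control and 2.58, 1.45 and 2.29 CPM in senescent libraries. Each KO senescent library lay above each WT senescent library. With 2 pooled counts in WT control cells and 1 in KO control cells, the ratios of pooled CPM were 21.9 (exact 95% interval 5.76 to 185.5, counting error only) and 163.9 (29.0 to 6510). The test gave adjusted p = 2.5e-05 in WT and 1.12e-08 in KO cells. In senescent cells KO exceeded WT by 1.78 on the log2 scale (SE 0.36, adjusted p = 0.00105). The interaction itself did not pass (2.68, 95% interval -0.44 to 5.80, adjusted p = 0.257), so the rise is not shown to differ between genotypes.

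Genes of the HoxD cluster, whose 5′ members pattern the digits and genitals, had almost no counts in control cells. Hoxd8, a central gene of the cluster, was the exception, at 0, 0 and 0.271 CPM in WT control, 0.850, 0.841 and 1.08 in WT senescent, 0.320, 0.438 and 0.515 in KO control and 1.77, 1.42 and 1.69 in KO senescent libraries. The log2 rise was 3.38 in WT (SE 0.64, adjusted p = 1.16e-04) and 1.93 in KO cells (SE 0.46, adjusted p = 0.00107). It was higher in KO than WT control cells by 2.26 (SE 0.71, adjusted p = 0.0385), a call that rests on 6 WT control counts, all in library 3, and that was lost without any 1 of WT control 1 or 2, WT senescent 1, 2 or 3, KO control 2 or 3 or KO senescent 1 (adjusted p 0.05002 to 0.164). The interaction was -1.45 (adjusted p = 0.243). Without WT control library 3 it passed the threshold (adjusted p = 0.0043), but the WT control group then held no Hoxd8 count, so the fitted size is no measure of the difference.

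Hoxd13, the most 5′ gene of its cluster, stood at 0.0402, 0 and 0 CPM in WT control, 0.442, 1.04 and 0.617 in WT senescent, 0 in each KO control and 1.08, 0.461 and 1.49 in KO senescent libraries. The ratio of pooled CPM was 50.5 (8.72 to 2027) in WT cells, and in KO cells, with no control count, the level was at least 26.4-fold higher, the floor being 3 counts over the pooled group. Its adjusted p was 8.4e-05 in WT and 5.74e-06 in KO cells. Hoxd11 had no control count and 0.442, 0.538 and 0.231 CPM in WT senescent and 0.617, 0.283 and 0.405 CPM in KO senescent libraries, at least 9.82-fold and 11.2-fold higher (adjusted p = 2.99e-04 and 1.84e-04). A stretch of 10.8% of the Hoxd11 exon length is shared with another annotated gene. The levels of both genotypes overlapped for Hoxd11 and Hoxd13.

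In HoxA and HoxC, Hoxa10 and Hoxc6 rose in the same way. Hoxa10, a gene of the uterus and lumbar region, had no control count, 0.476, 0.404 and 0.347 CPM in WT senescent and 0.386, 0.319 and 0.540 CPM in KO senescent libraries, at least 9.82-fold and 10.9-fold higher (adjusted p = 1.6e-04 and 1.1e-04). Hoxc6, a gene of the thoracic region, had no WT control count and 0.884, 0.673 and 0.347 CPM in WT senescent libraries, at least 15.4-fold higher (adjusted p = 1.07e-05). In KO cells it had 0.0400, 0.0337 and 0 CPM in control and 0.925, 0.886 and 0.911 CPM in senescent libraries, a ratio of 35.4 (9.46 to 297.5, adjusted p = 7.27e-06). No senescent library of either gene overlapped a control library.

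Hoxa5 was lower in KO than WT control cells. It stood at 1.17, 2.20 and 1.53 CPM in WT control, 1.26, 1.88 and 1.89 in WT senescent, 1.00, 0.572 and 0.772 in KO control and 1.47, 1.56 and 0.978 in KO senescent libraries. The control difference was -1.07 on the log2 scale (SE 0.33, adjusted p = 0.0346). It missed the threshold without WT control library 2 (adjusted p = 0.174), KO control library 2 (0.166) or KO control library 3 (0.0954), and with only the 2 groups in the fit (0.0731). The change with senescence in KO cells, 0.78 (SE 0.33), had an adjusted p of 0.0504, and in WT cells it was 0.04 (adjusted p = 0.93). The KO change also missed the threshold in 12 of 18 alternative runs and passed in the others (adjusted p down to 0.0267). Hoxa7 and Hoxb2 were also tested, at group means of 0.142 to 0.397 and 0.178 to 0.627 CPM, and passed in none of the 5 comparisons. They share 20.4% and 27.3% of their exon length with other genes. For Hoxb2 in senescent cells KO stood at 0.354 to 0.709 and WT at 0.136 to 0.231 CPM, without overlap (log2 difference 1.54, adjusted p = 0.0523). That Hoxb2 difference missed the threshold in 13 of 18 alternative runs and passed in the others (adjusted p down to 0.0311).

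Between genotypes, 2 of the 13 members tested were higher in KO control cells (Hoxc13 and Hoxd8) and 1 was lower (Hoxa5), where 8.07% and 4.96% of all genes were. In senescent cells 1 was higher (Hoxb9) and 1 lower (Hoxa2), where 11.9% and 11.8% were. For the change with senescence, none was larger in KO cells and 2 were smaller or more negative (Hoxa2 and Hoxc13), where 9.24% and 11.7% of genes were. Each count table held 1 genotype, so handling of the libraries and genotype cannot be told apart in these comparisons.

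The highest group mean of a member that could not be tested was 0.512 CPM, for Hoxd10 in KO senescent cells. Hoxd10 had no control count but 0.340, 0.202 and 0.154 CPM in WT senescent and 0.578, 0.283 and 0.675 CPM in KO senescent libraries, at least 5.61-fold and 13.3-fold higher. Hoxd9 had 0 and 1 control counts against 13 and 27 senescent counts in WT and KO cells, while Hoxd12 had 1 and 6 senescent counts, Hoxd3 had 5 and 5, Hoxd4 had 5 and 6 and Hoxd1 had 0 and 4. In HoxC, the senescent counts in WT and KO cells were 17 and 18 for Hoxc5, 8 and 23 for Hoxc8, 16 and 12 for Hoxc11, 12 and 15 for Hoxc12, 9 and 9 for Hoxc10, 10 and 7 for Hoxc4 and 2 and 5 for Hoxc9, with at most 3 control counts in either genotype for any of them. In HoxB, Hoxb3, Hoxb4 and Hoxb8 had 30, 13 and 6 counts in KO control and 30, 38 and 27 in KO senescent cells, against 6, 5 and 0 in WT control and 18, 12 and 5 in WT senescent cells. Hoxb5, Hoxb6, Hoxb7 and Hoxb13 had 0 WT control counts and 5, 2, 4 and 2 WT senescent counts, against 4, 1, 0 and 0 KO control counts and 13, 4, 11 and 6 KO senescent counts. In HoxA, Hoxa4 had 8 and 19 counts in WT and 7 and 19 in KO control and senescent cells, Hoxa6 had 2 and 9 and then 5 and 7, Hoxa9 had 0 and 11 and then 4 and 17, Hoxa11 had 0 and 3 and then 1 and 21, and Hoxa13 had 0 and 5 in each genotype. Exon sharing reached 62.8% for Hoxd3, 52.9% for Hoxb3 and 52.3% for Hoxd4, so counts of these 3 are uncertain.

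Of 9 HOX cofactor genes of the PBX and MEIS families, 2 rose and 2 fell in WT senescent cells, where 29.2% of all genes tested rose and 27% fell. In KO senescent cells 2 rose and 6 fell, where 28.5% of all genes rose and 28.6% fell. Meis3 rose by 1.22 and 1.23, and Pbx3 fell by 0.71 and 0.60, on the log2 scale in WT and KO cells. The change of Meis1, which binds with HOX and PBX, was 0.02 in WT and -0.46 in KO cells, with an interaction of -0.48 (adjusted p = 5.4e-04), and Pknox2, a related gene, had an interaction of -1.12 (adjusted p = 0.00788).

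Polycomb proteins silence Hox genes and trithorax proteins keep them active. Of 27 genes of these groups, 6 rose and 10 fell in WT senescent cells (29.2% and 27% over all genes), and 5 rose and 15 fell in KO senescent cells (28.5% and 28.6%). Ezh2, the histone H3 methyltransferase of Polycomb complex PRC2, was at 68.1 to 78.7 CPM in WT control, 17.8 to 20.1 in WT senescent, 67.5 to 79.1 in KO control and 16.8 to 19.9 in KO senescent libraries, a log2 change of -1.96 in both genotypes (adjusted p = 1.87e-14 and 1.58e-14). Suz12, its partner, changed by -0.97 and -0.88, and Phf19, which brings PRC2 to CpG islands, by -2.16 and -2.78. Ezh1, the other methyltransferase of PRC2, rose by 0.76 and 0.51, and Cbx7, a reader of the methyl mark, rose by 1.35 and 1.02. The senescent libraries in which posterior Hox counts appeared were the same ones in which Ezh2 was low. With only 2 conditions the same holds for other genes that fell with senescence, 27% of all genes in WT and 28.6% in KO cells. The part of Ezh2 in those counts was not tested and cannot be told apart from senescence itself.

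Among 23 genes of retinoic acid handling and other upstream regulators of Hox genes, 17 could be tested, of which 7 rose and 2 fell in WT senescent cells, beside 29.2% and 27% of all genes, and 6 rose and 8 fell in KO senescent cells, beside 28.5% and 28.6%. Cyp26b1, which breaks down retinoic acid, was at 87.1 to 94.8 CPM in WT control, 344.6 to 389.8 in WT senescent, 161.4 to 163.2 in KO control and 199 to 252.8 in KO senescent libraries. The log2 rise was 2.05 in WT and 0.47 in KO cells, a difference of -1.58 (adjusted p = 2.65e-08). Aldh1a1, which makes retinoic acid, rose by 4.71 and 4.03 (adjusted p = 3.02e-08 and 1.02e-07). Cdx1, Cdx2 and Cdx4, which drive posterior Hox genes in the embryo, had group means of at most 0.0257 CPM.

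Of 60 other transcription factors that mark body position, 49 were tested. In WT cells 23 rose and 7 fell with senescence (29.2% and 27% over all genes), and in KO cells 16 rose and 10 fell (28.5% and 28.6%). The factors of cranial and limb mesenchyme were high, Prrx1 at 473 to 575 CPM and Tbx15 at 57.9 to 70.1 CPM as group means. Pitx1 and Tbx4, which mark the hindlimb, and Shox2 and En1, which pattern limbs, rose from control means of at most 0.354 CPM in both genotypes. Pitx1 stood at 0.0301 CPM in WT control against 0.527 in WT senescent cells (adjusted p = 5.6e-04), and at 0.0429 in KO control against 0.690 in KO senescent cells (adjusted p = 1.9e-04). The median change of the 49 factors tested was 0.46 in WT and 0.07 in KO cells on the log2 scale, beside 0.02 and 0.00 over all genes.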

How the data were processed

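RNA of 12 libraries was sequenced, and the authors deposited whole-number read counts per gene, 1 table for each genotype. Per the labels and the study's methods, reads were trimmed with Trimmomatic 0.36, aligned to GRCm38 with STAR 2.5.2b, and unique reads in exons were counted with featureCounts; strand settings are not given in the sources used here. Groups came from the sample titles. Both tables were joined by gene ID (49315 rows). Genes were kept with filterByExpr (minimum count 10, 17416 genes), scaled by TMM (factors 0.926 to 1.07) and tested with edgeR 4.0.16 (R 4.3.3) by the robust quasi-likelihood test with 1 mean per group. Adjusted p-values (Benjamini-Hochberg over all genes tested) under 0.05 passed, and the study's added threshold is a log2 change of 1. CPM used TMM-scaled totals, and RPKM divided CPM by the union of GENCODE M21 exon lengths. Intervals are exact or fitted 95% intervals and, like floors of 3 counts, cover counting error only where they come from counts. Alternatives were DESeq2 1.42.0, its size factors, no filter, 2-group fits, a non-robust fit, a replicate block and each library left out. The script was tested on simulated data.

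All Hox genes found were counted, and 1 of them and 1 cofactor are not reported here; per-library values are given for members that passed in any of 5 comparisons and for those highest per length. Members and lists were chosen with earlier results of these data known. Marker lists gave these ranges of summed CPM over groups: macrophage 13.8 to 20.1, melanocyte 2.20 to 4.55, Schwann 14.0 to 32.2, endothelium 4.71 to 7.00, skeletal muscle 15.5 to 50.0.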

Additional observations from a re-analysis of the deposited data

Results flagged for a closer look

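For 4 genes the change with senescence differed between genotypes by the test of the difference itself (KO change less WT change, log2 scale, edgeR quasi-likelihood test). The difference was -1.145 for Hoxa2, -1.325 for Hoxc13, -1.679 for Hoxaas2 and -0.5679 for Hotairm1. Hoxa2, Hoxaas2 and Hotairm1 lie at the 3′ end of HoxA, and Hoxc13 lies at the 5′ end of HoxC. The group size of 3 left no group large enough for a test that flags single outlying libraries. Each library was left out in turn, with the outcome given above for Hoxa2, Hoxc13, Hoxd8 and Hoxa5.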

How the results depend on the processing

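No gene changed direction past the threshold under any alternative run. Without a filter on low counts, 38 Hox genes were tested, and 13 rose in WT and 16 in KO senescent cells (7 in each with the filter), by either threshold. Over all genes, 5230 rose in WT and 5238 in KO cells in that run by adjusted p alone. A member with no control count could only rise there, so the larger number is no evidence about Hox genes as a family. With only the 2 groups compared in the fit, fewer genes passed the filter and 4 rose in WT senescent cells, 1 was higher and 0 were lower in KO control cells, and 3 were higher in KO senescent cells by adjusted p alone and 2 with the fold threshold. With DESeq2 size factors, 2 were higher in KO senescent cells. Leaving out 1 library gave 1 to 4 members higher in KO control cells by adjusted p alone and 1 to 3 with the fold threshold, 0 to 1 lower, 1 to 2 higher in KO senescent cells, 1 to 2 below 0 for the interaction, and 0 to 1 lower by over 2-fold in KO senescence. The causes were not tested. Deviations of same-number control and senescent libraries from their group means had correlations of -0.125 to 0.108, beside -0.097 to 0.173 for other pairs. With 3 libraries per group these values cannot show whether samples were paired. A fit with the replicate block gave 7 members higher in WT and 8 in KO senescent cells, 2 lower for the interaction, and 2 higher and 1 lower in KO control cells. DESeq2 itself gave the same counts of members as edgeR. Over single genes, 1101 values stayed on their side of the threshold, 15 gained and 14 lost it, and 13 had no adjusted p from DESeq2. Counts of 0 to 3 in control libraries limit fold changes of the posterior genes to bounds or wide intervals.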
